A study of Mus musculus with 9 samples.

Results

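The chemokine genes that chiefly draw lymphocytes and dendritic cells, or that resting skin makes steadily, were examined in whole mouse skin after loss of *Supt6* from the epidermis. The 10 members were *Ccl17*, *Ccl19*, *Ccl20*, *Ccl22*, *Ccl27a*, *Cxcl9*, *Cxcl10*, *Cxcl12*, *Cxcl14* and *Cxcl16*, taken by gene symbol from the table of estimated counts, where all 10 were present among 17943 genes. *Supt6* encodes SPT6, a factor that travels with RNA polymerase II during transcription elongation. The knockout mice (*Supt6*-KO, n = 4) carried K14-CreERT and *Supt6* fl/fl alleles and received tamoxifen daily on 5 consecutive days, whereas the controls (n = 5) were, in the study's methods, *Supt6* fl/fl mice given corn oil. The sample labels call the controls wild-type and name tamoxifen for every sample. The K14 promoter acts in basal keratinocytes, so the deletion was aimed at the epidermis while every skin cell contributed RNA. By the methods the controls lacked both the Cre transgene and tamoxifen, and the contributions of these and of the deletion cannot be told apart. Skin was taken on day 10 after the last injection, the labels naming ear and the study's text dorsal skin. By the study's text the tamoxifen was given in the first telogen, the resting phase of the hair cycle, and an age in days or weeks is not given in the sources used here. Library totals lay between 29627341 and 30491197 counts for the controls and between 30597189 and 30967107 for the *Supt6*-KO mice. Values in CPM are counts scaled to a common library size with edgeR's composition factors. Fold changes and adjusted p-values are from edgeR's quasi-likelihood test over all genes, and SE is the standard error of the log2 fold change.

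*Supt6* itself stood at 74.5, 56.6, 63.6, 91.1 and 96.7 CPM in control mice 1 to 5 and at 28.6, 24.1, 21.9 and 28.4 CPM in *Supt6*-KO mice 1 to 4. The groups did not overlap, with a fitted log2 change of -1.57 (SE 0.18, adjusted p = 1.3e-05). It was -0.71 and -0.77 under corrections for effective and annotated gene length (described further on) and -2.26 with scaling by library totals. The estimated counts cover the whole gene, including exons outside the floxed stretch and transcripts of cells without Cre. The basal keratin gene *Krt5* was at 1757 CPM or more in every mouse, as a skin label requires. One library stood apart: *Supt6*-KO mouse 4 had a score of -59.48 on the second principal component, against 10.53 to 29.52 in the other *Supt6*-KO mice.

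Chemokines are small secreted proteins that guide leukocytes along gradients by way of G protein-coupled receptors. The homeostatic ones, such as CXCL12, CXCL14 and CCL27 in skin and CCL19 along lymphatic routes, are made without an inflammatory stimulus and set the traffic of resident and recirculating cells. The inducible ones, such as CXCL9, CXCL10 and CCL20, are switched on by interferon-gamma or by NF-κB. Atypical receptors bind chemokines without the usual signal, and some remove what they bind. Because whole tissue was measured, fewer cells of a type and less RNA per cell cannot be told apart in any value below.

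Of the 10 chemokines, 5 rose in the *Supt6*-KO skin with an adjusted p below 0.05 and at least a 2-fold change, namely *Cxcl9*, *Cxcl10*, *Ccl20*, *Ccl19* and *Ccl17*. None fell past both limits, and by DESeq2 the counts were also 5 and 0. *Cxcl16* rose and *Cxcl14* fell with an adjusted p below 0.05 but by less than 2-fold, and *Ccl22*, *Ccl27a* and *Cxcl12* did not pass. These counts stand against a broad change. Of 16426 genes tested, 20.9% were higher (3427) and 24.9% lower (4088) past both limits, and 34.1% were higher and 36.8% lower by adjusted p alone. The median log2 fold change of the 10 chemokines was 0.97, that of all genes -0.07. The chemokines' median was 0.11 and 0.47 under corrections for effective and annotated gene length, which put that of all genes at 0.01, and 0.27 under library totals. Scaling by library totals alone moved the median of all genes to -0.76, with 1470 genes higher and 6802 lower, so values given for library totals carry that shift. In 3 of the 10 (*Ccl17*, *Ccl19* and *Cxcl10*), every *Supt6*-KO mouse lay above every control, as did 28.9% of all genes, and in none did every *Supt6*-KO mouse lie below, as did 31.8% of all genes.

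**Figure D1:**
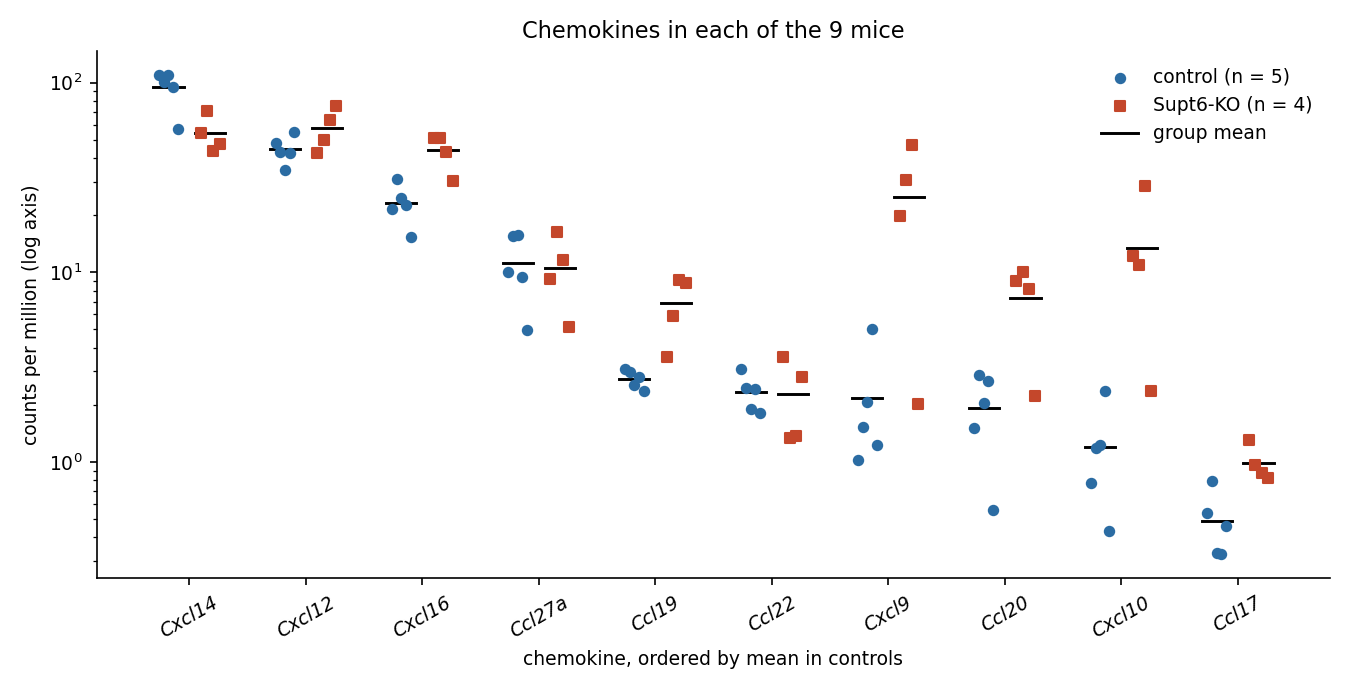
CPM (log axis) of the 10 chemokines in each of 5 control mice (blue circles) and 4 *Supt6*-KO mice (red squares), with group means as black bars. For *Cxcl9* and *Ccl20*, 3 of the 4 *Supt6*-KO mice sit above all controls, while the remaining one lies among the controls.

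Gene length moved with the comparison. Among all genes tested, the median log2 fold change was 1.26 for those with an annotated transcript of up to 1000 bases, 0.62 from there to 2000 bases, 0.09 to 3000, -0.31 to 5000 and -0.86 above 5000. Of all genes of up to 1000 bases, 55.9% were higher past both limits. Of the 3 chemokines in that class, *Ccl17* (514 bases) and *Ccl19* (773 bases) lay near its median, and *Ccl27a* (841 bases) lay below it, at -0.08. *Cxcl10* (1353 bases) and *Ccl20* (1417 bases) lay above the median of their class and *Cxcl14* (1827 bases) below it. *Cxcl9* (2889 bases) and *Cxcl16* (2699 bases) lay above the median of theirs, as did *Cxcl12* (5627 bases). *Ccl22* (2216 bases), at -0.03, lay near it. The cause of this trend was not tested.

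CXCL9 and CXCL10 are the interferon-induced ligands of CXCR3, the receptor of activated T cells and NK cells. Their genes are neighbours on chromosome 5 (GRCm38), *Cxcl9* at 92321331 to 92328079 and *Cxcl10* at 92346638 to 92348889, with 18558 bases between them. Their 250 bases before the start site (RefSeq, GRCm38.p6, gene orientation, both genes on the reverse strand) are shown because these neighbours had the largest fold changes of the 10, followed by the same window of *Ccl20* (forward strand), the third. Capitals mark matches to the κB consensus, the site NF-κB proteins bind, and to GAAANNGAAA, the core of the interferon-stimulated response element.
*Cxcl10*, chr5:92348890-92349139: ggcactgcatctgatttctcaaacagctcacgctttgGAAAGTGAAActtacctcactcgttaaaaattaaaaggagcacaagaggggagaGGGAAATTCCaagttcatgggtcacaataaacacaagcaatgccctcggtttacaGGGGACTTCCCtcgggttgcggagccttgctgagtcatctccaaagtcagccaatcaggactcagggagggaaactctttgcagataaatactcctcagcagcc
*Cxcl9*, chr5:92328080-92328329: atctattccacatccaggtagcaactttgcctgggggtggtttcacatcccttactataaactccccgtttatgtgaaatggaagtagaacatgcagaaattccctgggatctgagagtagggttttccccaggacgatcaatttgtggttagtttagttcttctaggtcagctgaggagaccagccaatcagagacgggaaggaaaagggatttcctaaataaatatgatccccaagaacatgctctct
*Ccl20*, chr1:83116516-83116765: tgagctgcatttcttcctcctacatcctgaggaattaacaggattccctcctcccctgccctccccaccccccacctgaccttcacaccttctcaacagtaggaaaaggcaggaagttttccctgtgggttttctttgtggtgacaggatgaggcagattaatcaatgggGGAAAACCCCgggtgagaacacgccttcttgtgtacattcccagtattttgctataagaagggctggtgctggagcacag
The *Cxcl10* window held 1 response element core, at -213 to -204, and κB matches at -159 to -150 and at -104 to -94, where a pair of overlapping matches shares all but the end bases. The *Ccl20* window held a κB match at -80 to -71. No match to either motif lay in the *Cxcl9* window. On both strands, 7.25% of 32851 such windows in the RefSeq table held the κB consensus and 2.98% GAAANNGAAA. Of the other chemokines, *Ccl19* and *Cxcl14* held GAAANNGAAA. No window of *Ccl17*, *Ccl22*, *Cxcl12* or *Ccl27a* held either of these motifs. These are matches of letters, and binding was not measured.

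*Cxcl9* stood at 1.02, 1.53, 2.08, 5 and 1.22 CPM in control mice 1 to 5 and at 19.8, 30.5, 46.8 and 2.01 CPM in *Supt6*-KO mice 1 to 4. *Supt6*-KO mice 1 to 3 were above every control, and mouse 4 was within the control range. *Cxcl9* rose by 3.51 on the log2 scale (SE 0.72, adjusted p = 0.001), and 3.89 without *Supt6*-KO mouse 4 (adjusted p = 2.3e-05). *Cxcl10* stood at 0.776, 1.18, 1.22, 2.35 and 0.433 CPM in the controls and at 12.2, 10.9, 28.4 and 2.37 CPM in the *Supt6*-KO mice. The groups did not overlap, but mouse 4 exceeded the highest control only by 2.37 to 2.35. *Cxcl10* rose by 3.50 on the log2 scale (SE 0.62, adjusted p = 0.00038), 3.85 without mouse 4 and 2.83 without mouse 3. The gene overlaps *Art3* in the annotation. Both chemokines kept an adjusted p below 0.05 under every one of the 18 alternatives, with log2 fold changes of 2.57 to 3.66 under the corrections for gene length. *Cxcl11*, the remaining CXCR3 ligand of the list, rose from at most 5 counts in any control to 13, 10, 17 and 1 counts (log2 fold change 2.25, adjusted p = 0.01), and did not pass under library totals (1.52). *Cxcr3* had 2 to 18 counts a mouse and did not pass (log2 fold change 0.77, SE 0.59, adjusted p = 0.26).

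Genes of the interferon-gamma axis were followed because interferon-gamma induces *Cxcl9* and *Cxcl10*. Of its 10 genes, 5 rose past both limits, beside 20.9% of all genes, 3 fell by less than 2-fold and 2 did not pass. The median log2 fold change was 0.82. *Gbp2*, a guanylate-binding protein induced by interferon, stood at 6.26, 6.38, 8.44, 10.3 and 5.55 CPM in the controls and at 20.1, 29.9, 50.5 and 6.39 CPM in the *Supt6*-KO mice. As with *Cxcl9*, mice 1 to 3 were above all controls, mouse 3 was highest and mouse 4 lay within the control range. *Gbp2* rose by 1.85, *Gbp3* by 1.06, the transcription factor gene *Irf1* by 1.03 and the receptor subunit gene *Ifngr2* by 1.05 on the log2 scale (adjusted p = 0.0028, 0.011, 0.0048 and 0.0016). Without mouse 4 these were 2.18, 1.31, 1.25 and 1.25. *Gbp5*, of the same family as *Gbp2*, did not pass (0.60, SE 0.44, adjusted p = 0.24). Of the *Supt6*-KO mice only mouse 3 was above every control in *Gbp5* (2.88 CPM, highest control 1.54). *Ifng* itself was at 0 in every control and at 5, 1, 5 and 4 counts in the *Supt6*-KO mice, at least 9.77-fold higher against a floor of 3 counts over the control group. The kinase genes *Jak1* (-0.81) and *Jak2* (-0.31) and the receptor subunit gene *Ifngr1* (-0.71) fell by less than 2-fold (adjusted p = 0.00023, 0.017 and 0.0012). The length corrections turned *Jak2* to a rise of 0.35 by effective and 0.26 by annotated length (adjusted p = 0.0048 and 0.019), and *Jak1* did not pass by effective length (-0.11, adjusted p = 0.3). Under library totals, in place of composition factors, only *Gbp2* and *Ifng* of the 5 rises passed both limits. Under the effective- and annotated-length corrections 3 and 4 did, *Irf1* being under 2-fold in both (0.90 and 0.84) and *Ifngr2* in the former (0.91). With library totals *Irf1*, *Gbp3* and *Ifngr2* were at 0.29, 0.30 and 0.32 (adjusted p = 0.28, 0.37 and 0.15). There *Jak1* (-1.49) and *Ifngr1* (-1.40) fell past both limits, and the median of the list was 0.08.

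**Figure D2:**
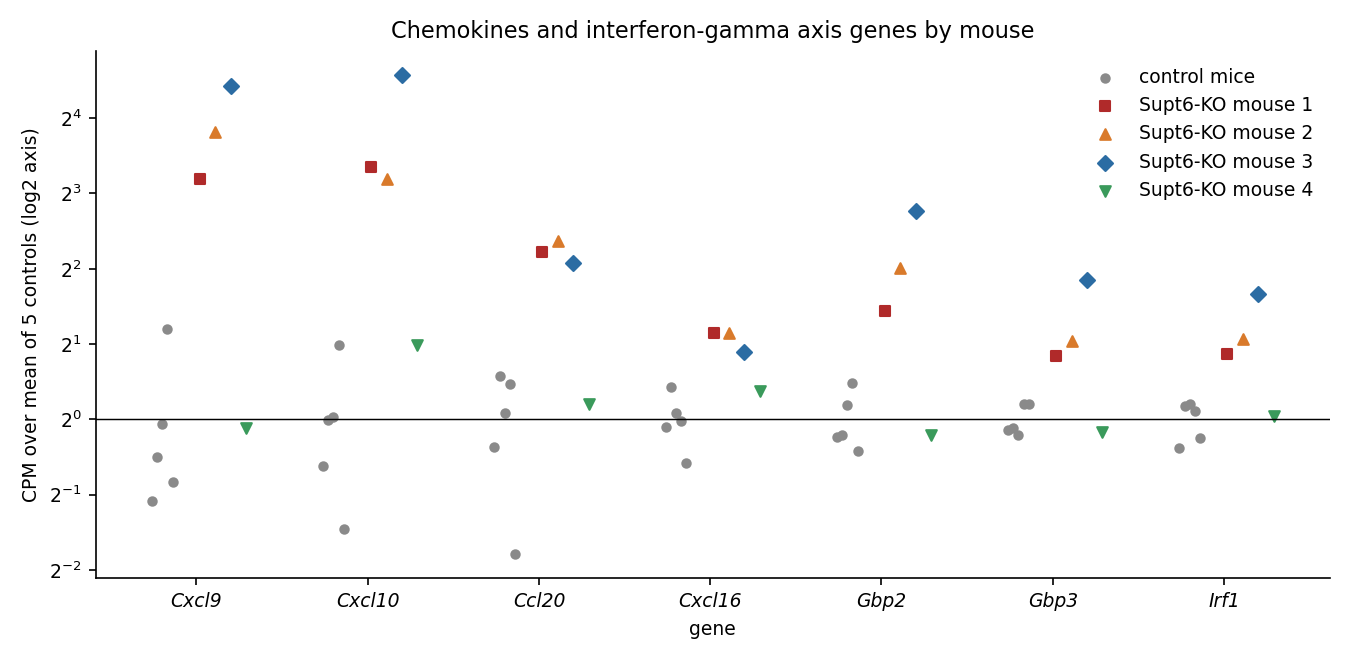
CPM of 4 chemokines and 3 interferon-gamma axis genes in each mouse, divided by the mean of the 5 controls (log2 axis; grey, controls; coloured symbols, *Supt6*-KO mice 1 to 4). *Supt6*-KO mouse 4 (green) lies within the control range for *Cxcl9*, *Ccl20*, *Cxcl16*, *Gbp2*, *Gbp3* and *Irf1*, and *Supt6*-KO mouse 3 (blue) is the highest for *Cxcl9*, *Cxcl10*, *Gbp2*, *Gbp3* and *Irf1*.

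CCL20 draws CCR6-bearing dendritic cells, B cells and T cells, and keratinocytes make it when NF-κB is active. *Ccl20* (chromosome 1, 83116766 to 83119167) stood at 1.5, 2.87, 2.05, 2.68 and 0.56 CPM in the controls and at 9.03, 10, 8.14 and 2.23 CPM in the *Supt6*-KO mice. Again *Supt6*-KO mice 1 to 3 were above every control and mouse 4 was among them. The rise was 1.93 on the log2 scale (SE 0.48, adjusted p = 0.0035), and 2.23 without mouse 4. It was 1.29 after correction for annotated length (adjusted p = 0.021) and 0.62 after correction for effective length, where it did not pass (adjusted p = 0.19), and 1.18 under library totals (adjusted p = 0.029). *Ccr6* had at most 9 counts in any mouse and did not pass (-1.38, SE 0.83, adjusted p = 0.16), but was lower under library totals (-2.04, adjusted p = 0.04).

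Genes of the NF-κB axis were followed because NF-κB induces *Ccl20* and takes part in the induction of *Cxcl10*. Of the 10 genes, 3 fell past both limits, near the 24.9% of all genes, 4 more fell and 2 rose by less than 2-fold, and 1 did not pass. The median log2 fold change was -0.70. It was -0.35 and -0.43 under the effective- and annotated-length corrections and -1.39 under library totals. *Rela*, which encodes the p65 subunit, stood at 42.4 to 64.7 CPM (median 53.7) in the controls and at 25.7, 13.5, 15.7 and 29.4 CPM in the *Supt6*-KO mice, below every control. The log2 change was -1.36 (SE 0.23, adjusted p = 0.00025). *Nfkb2*, which encodes the p100 precursor, fell by 1.35, and *Tnfaip3*, which encodes the inhibitor A20, fell by 1.04 on the log2 scale but by less than 2-fold under the length corrections (-0.53 and -0.60). *Relb* (-0.88), *Rel* (-0.78), *Nfkb1* (-0.62) and the inhibitor gene *Nfkbia* (-0.57) fell by less than 2-fold, whereas *Chuk* (0.52) and *Nfkbie* (0.45) rose by less than 2-fold, though library totals turned them to -0.15 and -0.25. Under library totals 7 of the 10 fell past both limits, and 2 and 4 under the effective- and annotated-length corrections. *Ikbkb* did not pass (-0.22, adjusted p = 0.067), but did without *Supt6*-KO mouse 4 (-0.28, adjusted p = 0.015) and under library totals (-0.90, adjusted p = 0.00028). These are transcript levels, and the activity of NF-κB proteins was not measured in these libraries. *Rel*, *Nfkb1* and, by annotated length, *Nfkbie* no longer passed under a length correction (adjusted p = 0.22 and 0.25 by effective length for the first pair, and 0.07 for *Nfkbie*). *Rel* also changed sign, to 0.19 by effective and 0.08 by annotated length.

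CCL19 guides CCR7-bearing dendritic cells and naive T cells toward and within lymph nodes. *Ccl19* (chromosome 4, 42754525 to 42756365) stood at 3.08, 2.96, 2.55, 2.79 and 2.37 CPM in the controls and at 3.59, 5.9, 9.15 and 8.8 CPM in the *Supt6*-KO mice. Every *Supt6*-KO mouse was above every control, and here mouse 4 was among the highest. *Ccl19* rose by 1.32 on the log2 scale (SE 0.26, adjusted p = 0.00069). Correction for gene length took it to 0.00 by annotated length and -0.08 by effective length (adjusted p = 0.99 and 0.82), and library totals took it to 0.64 (adjusted p = 0.057). Its receptor gene *Ccr7* rose, at 0.303 ± 0.115 CPM (SD, n = 5) in the controls and 0.859 ± 0.254 CPM (SD, n = 4) in the *Supt6*-KO mice (1.50 on the log2 scale, adjusted p = 0.0029), and did not pass under library totals (0.81, adjusted p = 0.062). Values after ± are SDs over these numbers of mice throughout. *Ccl21a*, which encodes the lymphatic CCR7 ligand, was at 37.3 ± 10.6 and 39.8 ± 2.26 CPM and did not pass (0.09, SE 0.19, adjusted p = 0.67). It was lower under the length corrections (-1.09 and -1.14, adjusted p = 0.0024 and 0.0025) and under library totals (-0.61, adjusted p = 0.027). *Ccl21a* shares its sequence almost wholly with the copies *Ccl21c* and *Ccl21d*, so the split of reads among them is uncertain. *Ackr4*, whose product scavenges CCL19, CCL21 and CCL25, stood at 80.7, 90.9, 88.1, 75.7 and 64.3 CPM in the controls and at 38.2, 32.6, 22.5 and 8.51 CPM in the *Supt6*-KO mice. All *Supt6*-KO mice lay under the controls, mouse 4 the lowest, and *Ackr4* changed by -1.65 on the log2 scale (SE 0.34, adjusted p = 0.001).

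CCL17 and CCL22 are the ligands of CCR4, a skin-homing receptor of type 2 helper and regulatory T cells, and dendritic cells are a main source of both. *Ccl22* (94745684 to 94751388) and *Ccl17* (94809380 to 94812038) lie 57991 bases apart on chromosome 8. *Ccl17* stood at 0.535, 0.794, 0.332, 0.325 and 0.458 CPM in the controls, from 12 to 29 counts, and at 1.3, 0.96, 0.869 and 0.826 CPM in the *Supt6*-KO mice, from 19 to 31 counts. The groups did not overlap on this scale, but the counts themselves did. *Ccl17* rose by 1.01 on the log2 scale (SE 0.32, adjusted p = 0.013), on the edge of 2-fold. It was under 2-fold, still with an adjusted p below 0.05, without control mouse 3, 4 or 5 or *Supt6*-KO mouse 1 (0.90, 0.89, 0.99 and 0.85), with upper-quartile factors (0.92) and with at least 10 counts required in each mouse (0.96). It was 0.32 by library totals (adjusted p = 0.39), and it turned to -0.85 (adjusted p = 0.044) after correction for effective length and to -0.75 (adjusted p = 0.067) by annotated length. *Ccl22* stood at 3.08, 2.46, 1.91, 2.41 and 1.81 CPM in the controls and at 3.59, 1.34, 1.37 and 2.8 CPM in the *Supt6*-KO mice, which spanned the controls on both sides. It did not pass (-0.03, SE 0.31, adjusted p = 0.94). *Ccr4* stood at 13.2, 14, 18.5, 12.7 and 13.8 CPM in the controls and at 11.3, 11.5, 6.95 and 1.26 CPM in the *Supt6*-KO mice. All 4 *Supt6*-KO mice were below the controls, yet their own spread was wide and the test was not passed (-0.90, SE 0.45, adjusted p = 0.095). It passed at -0.54 without mouse 4 (adjusted p = 0.026) and at -1.66 under library totals (adjusted p = 0.0047). *Ackr2*, whose product takes up inflammatory CC chemokines, fell from 4.64 ± 0.768 to 1.25 ± 0.593 CPM (-1.89 on the log2 scale, SE 0.28, adjusted p = 0.00011).

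CCL27 is made by keratinocytes and draws CCR10-bearing memory T cells to skin. *Ccl27a* (chromosome 4, 41769467 to 41774225) stood at 10, 15.6, 15.8, 9.44 and 4.96 CPM in the controls and at 9.19, 16.2, 11.6 and 5.17 CPM in the *Supt6*-KO mice. The groups overlapped over nearly their whole range (log2 fold change -0.08, SE 0.36, adjusted p = 0.85; 0.15 without mouse 4). The value rests on how reads were shared out, since the counts of *Ccl27a* were fractional in all 9 mice. Its near-copy *Ccl27b* was at 7.36 CPM in the median control and at 0.593 CPM in the median *Supt6*-KO mouse, and the sum of both copies had a log2 change of -0.66 (adjusted p = 0.09). After correction for effective length *Ccl27a* was at -2.30 (adjusted p = 2.9e-06) and for annotated length at -1.34 (adjusted p = 0.00083). The gene also overlaps *Il11ra1*. *Ccr10*, at 0.80 on the log2 scale, did not pass (SE 0.36, adjusted p = 0.065). *Ccl28*, which encodes the other CCR10 ligand, fell from 1.27 ± 0.249 to 0.461 ± 0.429 CPM (-1.46, SE 0.47, adjusted p = 0.016), but did not pass under the effective-length correction (-1.11, adjusted p = 0.056).

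CXCL12 is the ligand of CXCR4 and is made by fibroblasts and endothelium, and CXCL14 is a chemokine of resting epithelium. *Cxcl12* (chromosome 6, 117168535 to 117181368) stood at 48, 42.8, 34.4, 42.6 and 55.2 CPM in the controls and at 42.4, 50.1, 63.8 and 75.3 CPM in the *Supt6*-KO mice. Of the *Supt6*-KO mice, 2 exceeded the highest control, and the test was not passed (0.38, SE 0.18, adjusted p = 0.082). Without mouse 4, the highest, it was 0.22 (adjusted p = 0.25). DESeq2 gave 0.44 with an adjusted p of 0.041, the annotated-length correction 1.06 (adjusted p = 0.00016) and library totals -0.30 (adjusted p = 0.26). Its receptor gene *Cxcr4* stood at 3.32, 2.98, 2.46, 2.43 and 3.28 CPM in the controls and at 10.4, 10.4, 17.9 and 8.91 CPM in the *Supt6*-KO mice. The groups lay far apart, and the rise was 2.04 on the log2 scale (SE 0.22, adjusted p = 1.1e-05), or 1.31 under library totals. Neutrophils also carry CXCR4, and the summed CPM of 6 neutrophil markers was 27.3 ± 12.6 in the controls and 4677 ± 1639 in the *Supt6*-KO mice. Nearly all of the latter was *S100a9* (2715) and *S100a8* (1919), which inflamed keratinocytes also make, while the neutrophil receptor genes *Csf3r* and *Cxcr2* were at 8.47 and 13.3 CPM in the *Supt6*-KO mice and at 0.496 and 6 CPM in the controls. The part of these cells in the rise of *Cxcr4* was not tested. *Ackr3*, which encodes a scavenger of CXCL12, fell by less than 2-fold (-0.69, SE 0.17, adjusted p = 0.0037), with no *Supt6*-KO mouse reaching the controls.

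*Cxcl14* (chromosome 13, 56288643 to 56296811) stood at 110, 101, 109, 94.9 and 56.9 CPM in the controls and at 54.5, 70.4, 43.4 and 47.5 CPM in the *Supt6*-KO mice. Control mice 1 to 4 were above every *Supt6*-KO mouse, and control mouse 5 was among the *Supt6*-KO values. *Cxcl14* changed by -0.81 on the log2 scale (SE 0.21, adjusted p = 0.0043), short of 2-fold. It was negative with an adjusted p below 0.05 under all 18 alternatives. It passed 2-fold under both length corrections (-1.07 and -1.14) and library totals (-1.51).

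CXCL16 is made as a membrane-bound protein that ADAM10 and ADAM17 can shed, and its receptor CXCR6 marks tissue-resident T cells. *Cxcl16* (chromosome 11, 70454389 to 70459984) stood at 21.5, 31, 24.6, 22.7 and 15.4 CPM in the controls and at 51.3, 51.2, 43.1 and 30.1 CPM in the *Supt6*-KO mice. Mice 1 to 3 were above every control, and mouse 4 fell just under the highest. *Cxcl16* rose by 0.93 on the log2 scale (SE 0.21, adjusted p = 0.0018), and 1.07 without mouse 4, past 2-fold. The effective-length correction gave 0.44 (adjusted p = 0.032) and library totals 0.22 (adjusted p = 0.3). Its counts were fractional in all 9 mice, and it overlaps *Zmynd15*. *Adam10* rose by less than 2-fold, from 73.3 ± 4.99 to 108 ± 13.4 CPM (0.55, SE 0.11, adjusted p = 0.001), every *Supt6*-KO mouse being above every control, but was at -0.12 under library totals and past 2-fold under the length corrections (1.11 and 1.03). *Adam17* did not pass (-0.09, SE 0.10, adjusted p = 0.46), was higher under the length corrections (0.44 and 0.36, adjusted p = 0.0017 and 0.0052) and was lower under library totals (-0.77, adjusted p = 0.00099). *Cxcr6* was at 3.58 ± 0.445 CPM in the controls and ran from 1.08 to 5.98 CPM in the *Supt6*-KO mice, without passing (-0.19, adjusted p = 0.67), but was lower under library totals (-0.91, adjusted p = 0.043). *Dpp4* encodes a protease that trims the amino end of several chemokines, CXCL10 and CXCL12 among them. It stood at 4.16 to 7.21 CPM (median 6.01) in the controls and at 16.4, 22.9, 39.5 and 45.9 CPM in the *Supt6*-KO mice, a rise of 2.44 on the log2 scale (SE 0.30, adjusted p = 2.3e-05), which ranged from 1.77 under library totals to 3.14 under the effective-length correction.

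Across the 11 receptors, 2 rose past both limits (*Ccr7* and *Cxcr4*), 2 fell (*Ackr2* and *Ackr4*), 2 fell by less than 2-fold (*Ackr1* and *Ackr3*) and 5 did not pass, the calls past both limits being no more frequent than the 20.9% higher and 24.9% lower of all genes. The median log2 fold change was -0.69, and -1.39 under library totals, where 1 rose and 6 fell past both limits. Under either length correction 2 rose and 3 fell past both limits, *Ackr1* then included (-1.77 and -1.87). All 4 atypical receptor genes fell by adjusted p, beside 36.8% of all genes, and they were lower under both length corrections and under library totals as well. The 10 other lymphocyte-attracting ligands had a median of 2.26, with 6 higher and 3 lower past both limits, beside 20.9% and 24.9% of all genes. The effective-length correction gave a median of 0.68 with 4 higher and 3 lower, and the annotated-length correction 0.88 with 4 and 4, while library totals gave 5 and 3. *Ccl8*, whose product attracts type 2 helper T cells by way of CCR8 in the mouse, stood at 15.9, 21.6, 14.6, 16.5 and 19.5 CPM in the controls and at 177, 198, 268 and 135 CPM in the *Supt6*-KO mice. The groups were far apart, and *Ccl8* rose by 3.46 on the log2 scale (SE 0.20, adjusted p = 2.5e-07), still by 1.47 or more under both length corrections. *Ccl25*, a thymus and gut chemokine, rose by 2.26 and *Cxcl13*, which guides B cells, by 2.42 on the log2 scale, the latter from at most 16 counts in any mouse. The length corrections took them to 1.38 and 1.31 for *Ccl25* and to 1.62 and 1.53 for *Cxcl13*. *Ccl5* rose by 2.41 and *Ccl1* by 2.71, but from at most 9 counts in any control, and neither passed under a length correction. *Cx3cl1*, which encodes a membrane-bound chemokine, fell from 18.5 ± 2.29 to 4.15 ± 1.53 CPM (-2.15, SE 0.24, adjusted p = 1.3e-05). *Xcl1*, a product of activated T and NK cells, stood at 1.28, 3.23, 2.57, 1.6 and 1.02 CPM in the controls and at 0.0418, 0.384, 0.229 and 0.144 CPM in the *Supt6*-KO mice. No *Supt6*-KO mouse reached any control, and *Xcl1* fell by 3.30 on the log2 scale (SE 0.53, adjusted p = 0.00018), and was at -5.12 and -5.02 under the length corrections.

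**Figure D3:**
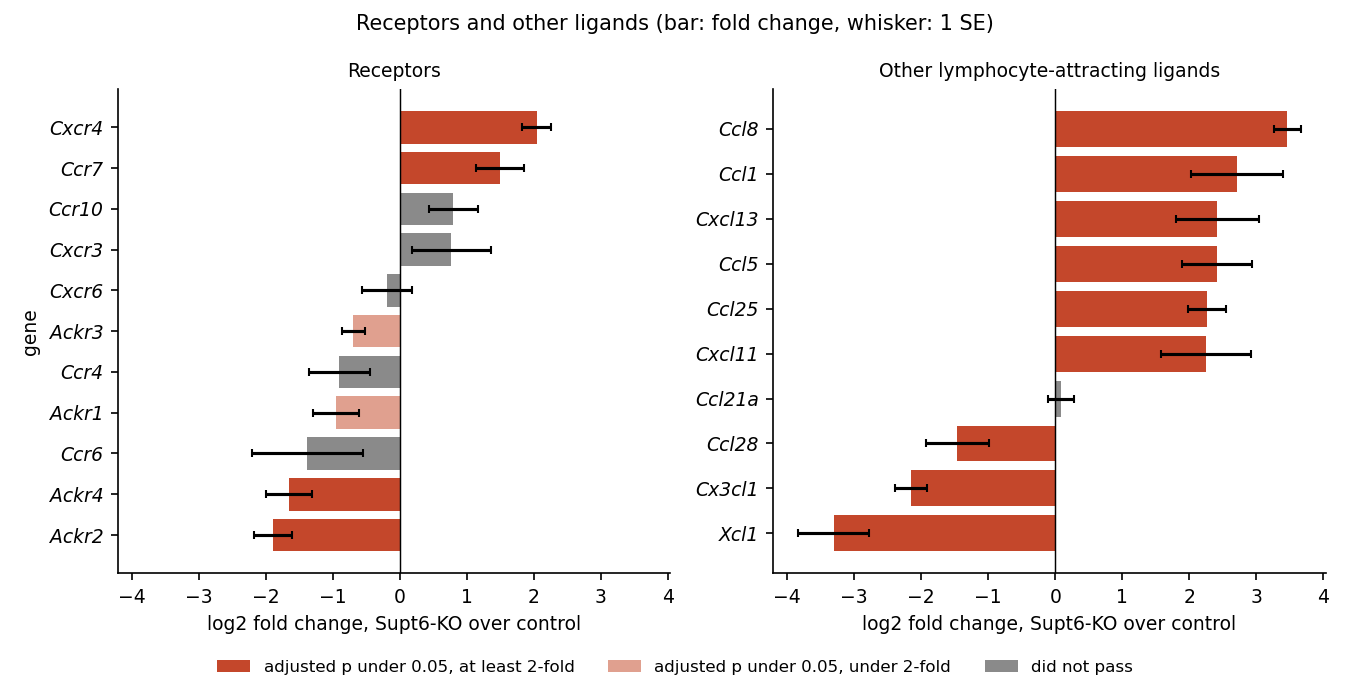
Log2 fold changes (bars, whiskers 1 standard error) of 11 chemokine receptors (left) and 10 further lymphocyte-attracting ligands (right) in *Supt6*-KO over control skin. The 4 atypical receptors *Ackr1* to *Ackr4* lie below 0, and the ligands run from 3.46 for *Ccl8* to -3.30 for *Xcl1*.

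The cells that make or answer these chemokines left their own transcripts in the same libraries. Counts of markers past both limits stand beside 20.9% of all genes higher and 24.9% lower. Of 7 T cell markers measured, 3 fell past both limits (*Cd3e*, *Cd3g* and *Cd247*), *Cd3d* fell by less than 2-fold, *Cd8a* rose, and *Cd4* and *Lck* did not pass. Their summed CPM was 36.7, 44.3, 47.2, 38.2 and 34.6 in the controls and 15.5, 10.4, 11 and 8.8 in the *Supt6*-KO mice, with *Cd3g* the most abundant in the controls and *Lck* (2.75 CPM) in the *Supt6*-KO mice. No *Supt6*-KO mouse reached the control range, and no marker on this list was at 0 in all mice. Of 8 dendritic and Langerhans cell markers, 5 fell past both limits. Their sum was 1101 ± 105 CPM in the controls, where *Cd74* was the most abundant (442), and 386 ± 152 CPM in the *Supt6*-KO mice. There *Epcam*, also an epithelial gene, was the most abundant (180) and had not passed, while *Cd74* was at 50.3 CPM. *Cd207*, which encodes the Langerhans cell lectin langerin, fell by 2.12 on the log2 scale (adjusted p = 0.0015). Of 6 macrophage markers, *Lyz2*, *Mrc1* and *Cd68* rose past both limits and *Csf1r* fell. *Adgre1* rose by less than 2-fold (0.52) and *Cd163* did not pass (-0.02). The sum was 192 ± 56.1 and 784 ± 195 CPM, led by *Lyz2*, which was at 92.9 CPM in the controls and 641 CPM in the *Supt6*-KO mice. The count of macrophage markers higher past both limits was 2 without *Supt6*-KO mouse 4, under either length correction or under library totals. All 6 neutrophil markers rose past both limits (5 under library totals), led by *S100a9*. *Supt6*-KO mouse 4, at 2516 CPM, had the lowest neutrophil sum of the *Supt6*-KO mice, beside 4571, 5170 and 6449 in the others, but in *Csf3r* its 9.74 CPM was above mice 1 and 2 (5.64 and 6.43).

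Among the remaining lists, 2 of 3 B cell markers tested rose (1 under library totals or either length correction) at sums of 2.09 CPM or less, while the fibroblast sum was 5884 ± 2952 and 2942 ± 802 CPM with 3 of 8 markers lower past both limits (6 under library totals). The blood endothelial sum was 86 ± 22.8 and 44.3 ± 5.88 CPM with 3 of 6 markers lower past both limits (2 under either length correction, 5 under library totals). The lymphatic endothelial sum, most of it *Ccl21a*, was 69.1 ± 19.6 and 53 ± 3.09 CPM with 2 of 4 lower past both limits, and 3 of 4 under either length correction, *Ccl21a* then included. All 5 skeletal muscle markers fell, their sums being 3588 ± 365 and 579 ± 78.2 CPM with *Acta1* the most abundant, and 3 of 4 adipocyte markers fell while *Fabp4*, the most abundant, did not pass. Of 6 keratinocyte markers, *Krt1* rose, *Krt15* and *Col17a1* fell past both limits, *Krt5* fell by less than 2-fold, and *Krt14* and *Krt10* did not pass. The part of any of these shifts in the chemokine values was not tested.

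Levels between genes were compared per length, within a group only, because TPM, which scales counts by transcript length and by the total over all genes, shifted for the median gene by -1.47 on the log2 scale in the *Supt6*-KO mice. On the TPM scale with effective lengths, the order of levels in the controls was *Ccl27a* (148 ± 46.6), *Cxcl14* (97.2 ± 17), *Cxcl12* (36.2 ± 10.4), *Cxcl16* (30.4 ± 4.41), *Ccl19* (11 ± 1.25), *Ccl20* (6.18 ± 2.79), *Ccl17* (4 ± 1.36), *Ccl22* (2.46 ± 0.551), *Cxcl10* (2.38 ± 1.52) and *Cxcl9* (1.33 ± 1.05). Neighbours in this order overlapped between mice, except *Cxcl14* with *Cxcl12* and *Cxcl16* with *Ccl19*. In the *Supt6*-KO mice *Ccl27a* was again highest, at 48.8 ± 11.2 TPM, *Cxcl16* (20.8 ± 3.47) and *Cxcl14* (20.3 ± 5.06) followed within each other's spread, and *Ccl22* was last at 0.943 ± 0.608. *Cxcl10* stood sixth at 8.78 ± 6.2 TPM and *Cxcl9* eighth at 4.71 ± 3.22. The place of *Ccl27a* depended on the length used. By CPM per kilobase of annotated transcript the controls had 51.7 ± 11.9 for *Cxcl14* and 13.3 ± 5.44 for *Ccl27a*, and the *Supt6*-KO mice 29.5 ± 6.51 for *Cxcl14*, 16.3 ± 3.69 for *Cxcl16* and 12.5 ± 5.49 for *Ccl27a*.

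Over the 9 mice, among 13564 genes with a mean of at least 1 CPM, the genes whose log2 CPM followed the 3 chemokines of highest mean TPM (effective lengths) most closely were *Slc25a20*, *Rida* and *Vamp5* for *Ccl27a* (Pearson r = 0.960, 0.948 and 0.914), *Rtn3*, *Pcca* and *Laptm4b* for *Cxcl14* (0.973, 0.961 and 0.951) and *Fbln1*, *Tfpi* and *Praf2* for *Cxcl12* (0.970, 0.941 and 0.937). By annotated length *Cxcl16* ranked above *Cxcl12*. The 9 points share their group, depth and scaling, so these values describe the libraries and carry no test.

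The plot of fold changes by way of fitting sets the chemokines side by side. *Cxcl9* lay between 2.72 and 3.89, *Cxcl10* between 2.57 and 3.85 and *Cxcl14* between -1.51 and -0.75 in the fits shown. *Ccl17*, *Ccl19* and *Ccl27a* moved most with length, and *Cxcl12* changed sign with library totals. Under the effective-length correction 2 chemokines were higher and 2 lower past both limits, under the annotated-length correction 4 and 2, and under library totals 3 and 1.

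**Figure D4:**
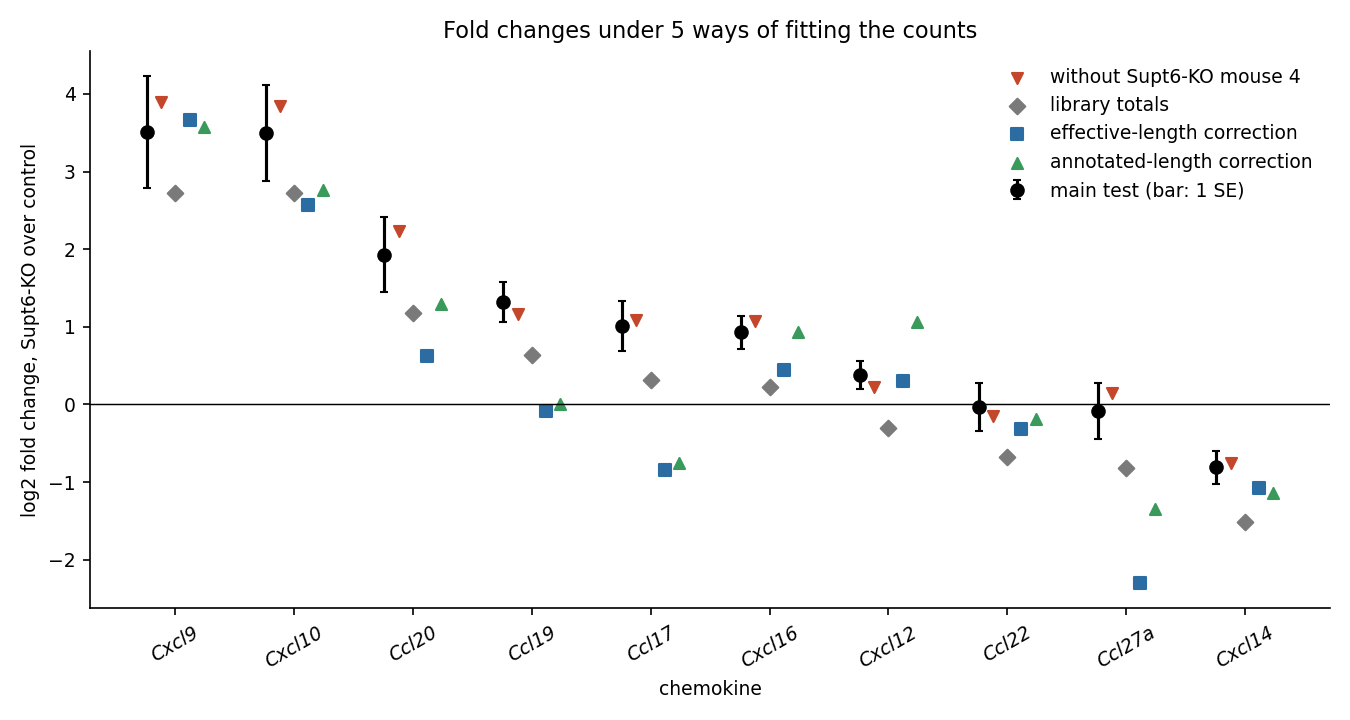
Log2 fold change, *Supt6*-KO over control, of each chemokine under 5 fits: the main edgeR test (black, bar 1 standard error), without *Supt6*-KO mouse 4 (red), library totals (grey), effective-length correction (blue) and annotated-length correction (green). The symbols of *Cxcl9* and *Cxcl10* all lie at 2.57 or higher, while those of *Ccl17*, *Ccl19*, *Ccl27a* and *Cxcl12* span 0.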

How the data were processed

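Bulk RNA of 9 mice was analysed. The authors sequenced paired reads and, in their methods, aligned them to mm10 with Bowtie2 2.3.4.3 and estimated gene levels with RSEM 1.3.1. The submitters' processing notes also name HISAT and DESeq2 1.4.5. The deposited table holds RSEM expected counts, of which 9% were not whole, and the authors' TPM for 6 mice, namely every control and *Supt6*-KO mouse 4.

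Expected counts were rounded and tested with edgeR 4.0.16 (R 4.3.3; TMM factors, quasi-likelihood test, Benjamini-Hochberg adjustment) over the 16426 genes with at least 10 counts over the 9 mice. Calls needed an adjusted p below 0.05 and a 2-fold change. By gene ID, symbol or synonym, 17917 rows matched RefSeq. Lengths came from the deposited counts and TPM (effective length) or from the longest protein-coding GENCODE transcript (annotated length), and TPM of all 9 mice were computed with the former. Effective lengths thus rest mostly on the controls. On simulated data for this comparison (16316 genes tested), edgeR recovered 96% of 100 genes changed 4-fold and 99% of 100 changed 8-fold and called 5 unchanged genes. Only these genes were changed there, without a length trend and with no change near 2-fold. The rates therefore need not hold for a shift as broad as the real one. TMM factors were 1.2 to 1.31 in the controls and 0.674 to 0.91 in the *Supt6*-KO mice. Nothing states that separate litters or days lay behind the mice, so p-values measure the spread between these samples. The counts, *Supt6* and the 10 chemokines were recomputed by DESeq2 1.42.0, by library totals or upper-quartile factors in place of TMM, under other count filters, with the 50 most abundant genes left out, with a replicate block, under 2 length corrections, without each mouse in turn and, for *Ccl27a*, with summed gene copies. The other named genes and lists were recomputed under the length corrections, under library totals and without *Supt6*-KO mouse 4. Annotated length and summed copies were added after seeing the data. The chemokines and all gene lists were chosen with earlier results of these data known. Genes named are those of the lists, *Supt6*, and the 3 genes most correlated with each of the 3 chemokines of highest TPM. *Trdc* of the T cell list had no row, and 1 gene of the interferon-gamma list is counted, and 1 more motif was searched, without being reported here. Promoter windows of 9 of the 10 chemokines were found (3 for *Ccl27a*), none for *Cxcl16*.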

Additional observations from a re-analysis of the deposited data

Results flagged for a closer look

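Single mice far from the rest of their group were sought with Dixon's ratio in 132 groups of 4 or 5 mice, for the chemokines, *Supt6*, the genes of the receptor, ligand, enzyme, interferon-gamma and NF-κB lists and the marker sums. Chance alone flags about 1 in 20, here 6.6, and 11 were found.

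Among the chemokines, control mouse 4 had 5 CPM of *Cxcl9* (control median 1.53), and control mouse 5 had 56.9 CPM of *Cxcl14* (median 101). Among the receptors, control mouse 3 was high in *Ccr4* (18.5 CPM, median 13.8) and control mouse 5 in *Cxcr3* (0.458 CPM, median 0.135, from 18 counts). In the *Supt6*-KO group, mouse 3 was high in *Cxcr4* (17.9 CPM, median 10.4) and in *Gbp5* (2.88 CPM, median 1.09), and mouse 1 in *Ackr2* (2.13 CPM, median 0.982). *Supt6*-KO mouse 4 was high in *Adam17* (78.4 CPM, median 63.6), in *Chuk* (63.2 CPM, median 45.1) and in the summed lymphatic endothelial markers (57.6 CPM, median 51.7). The summed keratinocyte markers were high in control mouse 4 (28587 CPM, median 26036).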

How the results depend on the processing

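Of 313 values recomputed under an alternative, 276 kept their direction and side of the adjusted p threshold, or for counts stayed within 1.5 times. All 18 alternatives did so for *Supt6*, *Cxcl9*, *Cxcl10* and *Cxcl14*. With library totals, 1470 genes were higher and 6802 lower, the chemokines higher and lower numbered 3 and 1 and the receptors 1 and 6; the log2 fold changes were 0.32 for *Ccl17*, 0.64 for *Ccl19*, -0.82 for *Ccl27a* (adjusted p = 0.039), -0.30 for *Cxcl12* and 0.22 for *Cxcl16*. With the effective-length correction the chemokines numbered 2 higher and 2 lower, and the values were -0.85 for *Ccl17*, -0.08 for *Ccl19*, 0.62 for *Ccl20* and -2.30 for *Ccl27a*. With the annotated-length correction 2 chemokines were lower, and the values were -0.75 for *Ccl17*, 0.00 for *Ccl19*, -1.34 for *Ccl27a* and 1.06 for *Cxcl12*. DESeq2 gave 0.03 for *Ccl22* and 0.44 for *Cxcl12* (adjusted p = 0.041). Where each mouse had to reach 10 counts, 1 receptor was higher, since fewer genes were tested. With no minimum fold change 5608 genes were higher, and 1 chemokine and 4 receptors were lower. The causes of the other shifts were not tested.

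Leaving out each mouse in turn gave log2 fold changes of -0.33 to 0.14 for *Ccl22*, -0.38 to 0.15 for *Ccl27a* and 0.22 to 0.50 for *Cxcl12*, which passed without control mouse 5 (0.47) or *Supt6*-KO mouse 1 (0.50). The chemokines higher numbered 4 to 6 and the receptors lower 2 to 4, the latter highest without *Supt6*-KO mouse 1. The widest ranges of chemokines that kept their call were 3.00 to 4.08 for *Cxcl9* and 2.83 to 3.90 for *Cxcl10*. With the replicate number as a block (mice 1 to 4 of each group), 3139 genes were higher and 3836 lower and the chemokine count stayed at 5 and 0. Same-numbered mice correlated at 0.0133, 0.234, 0.215 and 0.0685 in their deviations from the group means. The mean was 0.133, against -0.0281 for mice of unlike number. Whether same-numbered mice share more than a number was not tested. Among the receptors, ligands and interferon-gamma genes, depth limits *Ccr6*, *Ccr10*, *Cxcr3*, *Ifng*, *Cxcl11* and *Cxcl13*, at 18 counts or fewer in every mouse.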
